A study of Mus musculus with 16 samples.

Results

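The genes described here encode the proteins of the cytosolic ribosome in mouse pulmonary endothelial cells (ECs). They were chosen by name alone, as protein-coding genes whose symbol is Rpl or Rps with a number and at most a short paralog suffix, together with Rplp0, Rplp1, Rplp2 and Rpsa. This gave 83 of the 54532 genes in the tables, 52 for the large subunit and 31 for the small subunit. RNA-seq was run in bulk on ECs from a pair of experiments on acute lung injury by lipopolysaccharide (LPS), the endotoxin of Gram-negative bacteria. In the first experiment, wild-type male C57/BL6J mice 8 weeks old received saline (n = 4) or 10 mg/kg LPS (n = 6) into the trachea. In the second, Fgfr1 loxP/loxP mice (n = 3), which carry floxed Fgfr1, and their Fgfr1 iΔEC/iΔEC littermates (n = 3), which also carry VE-cadherin-CreERT2, received 2 mg/kg LPS, so that no group of the second experiment was free of LPS. Both genotypes received intraperitoneal tamoxifen, which activates the Cre that only the iΔEC/iΔEC mice carry, and this Cre is driven by the promoter of VE-cadherin, an endothelial adhesion protein. Lungs were taken after 24 h in all groups, and the age of the mice in the second experiment is not given in the sources used here. ECs were isolated by removing cells with CD45, a leukocyte surface protein, and then capturing cells with CD31 on magnetic beads. Each library is labelled as a separate sample, whether it came from 1 mouse or from pooled mice is not stated, and the p-values below measure the spread between these libraries only.

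The ribosome is built of a large 60S and a small 40S subunit, each made of ribosomal RNA and of proteins that are nearly all needed in equal number. The small subunit reads the mRNA and the large subunit forms the peptide bond, with a flexible stalk on the large subunit that recruits the elongation factors. Ribosomal protein mRNAs commonly begin with a 5′ terminal oligopyrimidine (TOP) run, a cytidine followed by further C or T bases, through which the kinase mTOR and the RNA-binding protein LARP1 regulate their translation and stability together.

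The TOP run can be read at the annotated starts, so a few starts are printed to show what the members share. Each line gives 28 bases of GRCm38.p6 on the strand of the gene, with 10 bases before the RefSeq start and 18 from the start on, and capitals mark a C followed by at least 4 further C or T bases that begins within 5 bases of the start.
Rpl15 (chr14:18270969-18270996, minus strand): agaaagccttCTTCCTTTCCTCTggcgg
Rpl27a (chr7:109519185-109519212, plus strand): cgtgagctcCTCCCTTTTCCCTTTCTgc
Rpl35 (chr2:39005114-39005141, minus strand): ccgccctttcCTCTTTCTCTCgaaccag
Rps6 (chr4:86857350-86857377, minus strand): gaagtcgggcCTCTTTTTCgtgacgcct
Rps18 (chr17:33955648-33955675, minus strand): cacttccgctCTCTCTTCCacaggaggc
Rps10 (chr17:27635227-27635254, minus strand): gcgcacgcccCTTCCTTTCCagcctccg
Rps2 (chr17:24720053-24720080, plus strand): gtcgagatctcgcgCTTCTTggagcact
Rplp0 (chr5:115559457-115559484, plus strand): cgggtttcgaggaccgcctggttctcct
Rpl24 (chr16:55966265-55966292, plus strand): gctgttgctaggaaacagactgggcgct
Rpl15, Rpl27a, Rpl35, Rps6 and Rps18 were chosen as typical runs, and the others are members whose values are described below.

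Of the 63 members with a RefSeq promoter in the table used, 28 (44.4%) held such a run at the first listed start, against 19.0% of the 16497 protein-coding genes matched. The share was 38.5% in a list of translation factors and other genes with known TOP mRNAs, 22.1% in mitochondrial ribosomal proteins, 28.6% in subunits of oxidative phosphorylation and 21.9% in the proteasome. Only the strand of the gene was searched, and no run in this window says only that these letters are not there. The change with LPS described below had a median of 1.04 on the log2 scale over the 28 members with a run and of 1.02 over the 33 tested members without one.

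Values are FPKM as the authors deposited them, that is, fragments counted on a gene relative to its length and to library size. The reads assigned to genes were 13478726 to 18807007 in the saline libraries, 17840221 to 19043015 in the LPS libraries, 15969575 to 17002788 in the loxP/loxP libraries and 16642177 to 16943522 in the iΔEC/iΔEC libraries. At this depth a typical member is well covered, and Rps2, for example, had 5473 to 6359 reads in the saline libraries. The endothelial identity of the samples was checked on 10 marker genes, none of which was at 0 in any library. Pecam1, which encodes CD31, averaged 400 ± 81.5 FPKM (SD, n = 4) in saline and 358 ± 76.8 FPKM (SD, n = 6) in LPS, and Cdh5, which encodes VE-cadherin, averaged 710 ± 56.0 and 394 ± 97.6 FPKM. The endothelial markers were accompanied by those of other cells, such as the alveolar epithelial gene Sftpc at 1316 ± 550 FPKM in saline and 280 ± 126 FPKM in LPS.

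In saline ECs the members spanned a wide range of levels. The median over the tested members was 109 FPKM, 74 of the 83 averaged at least 20 FPKM, and 9 lay below. The highest was Rplp1, an acidic protein of the stalk, at 855 FPKM, followed by Rps15 at 585, Rpl36 at 376, Rpl8 at 366 and Rplp0, the base of the stalk, at 331 FPKM. The lowest tested members were Rpl3l at 0.138, Rpl36al at 0.689, Rpl24 at 1.62, Rps10 at 2.89 and Rpl13a at 5.62 FPKM. Rpl10l, a paralog used in the testis, was at 0 in all libraries of both experiments, and Rpl39l, another germ cell paralog, reached at most 0.425 FPKM, so these 2 members were not tested.

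The length by which FPKM is divided matters for these levels. The lengths in the tables ran from 383 to 6270 bases over the members, with a median of 1739, and for 79 of the 83 they equalled the union of all annotated exons in GENCODE M21. The principal mRNA of a member is shorter, with a median of 761 bases, and the table length exceeded it by a median factor of 2.10, against 1.22 over 21828 protein-coding genes. Levels per principal mRNA length were therefore more even over the members. Their SD was 0.806 on the log2 scale in place of 0.998 over members with a saline mean of at least 20 FPKM, and the highest exceeded the lowest by a factor of 21.3 in place of 39.1. On the mRNA scale Rplp1 stayed first at 855 FPKM, while Rps18 moved from rank 38 to rank 9 and Rpl18 from rank 53 to rank 10. The choice of length is the same for all libraries and cancels in a fold change, apart from the added 1 FPKM.

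The 4 lowest tested members apart from Rpl3l had an annotation feature in common. Rpl24, Rpl13a, Rpl36al and Rps10 share 47.0%, 35.4%, 24.5% and 20.6% of their exon bases with another gene on the same strand, and no other member shares as much as 20%, a limit set after the values were seen. The overlapping genes are the predicted genes Gm28037, Gm45713 and Gm49383, the readthrough gene RPS10-NUDT3 and, within Rpl13a, the small RNA genes Mir5121 and Snord33. Each had 0 reads in all 10 libraries of the first experiment and in all 6 of the second. These 4 members lay between 0.689 and 5.62 FPKM in saline, against a median of 114 FPKM over the other 77 tested members. Rpl35 and Rpl23a, which share 66.2% and 62.3% of their exon bases with genes on either strand but little or none on the same strand, stood at 133 and 114 FPKM. How reads on shared bases were counted is not given in the sources used here, so the low levels and the changes of these 4 genes may not be those of their mRNAs. The part of the overlap in their values was not tested.

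The first comparison asks how the EC fraction differs between saline and LPS. Ribosomal protein mRNAs were higher in LPS for most of the ribosome. Of the 81 members tested, 71 rose and 0 fell (limma, Benjamini-Hochberg adjusted over 14893 genes, threshold 0.05), where 29.5% of all genes tested rose and 23.7% fell. The median log2 fold change of the members was 0.99, a fold of 1.99, with quartiles of 0.83 and 1.13, against 0.01 over all genes tested. Of the 52 large subunit genes 50 were tested and 45 rose, with a median of 1.01, and of the 31 small subunit genes 26 rose, with a median of 0.98. At least a doubling on this scale was reached by 40 of the called members, where 11.9% of all genes tested did so, and 0 members fell to that extent, where 6.79% of all genes did. All 6 LPS libraries lay above all 4 saline libraries for 50 members, where 22.7% of all genes tested did so. Rpl3l is in these counts but passed the filter on low values only through LPS, so they were also taken over genes with at least 0.5 FPKM in both groups. Of the 80 members there, 70 rose, 44 of them among 49 large subunit genes, 39 at least doubled and 49 had groups that did not overlap, with a median of 0.99. Of all 13401 such genes, 29.4% rose, 11.4% rose and at least doubled and 22.4% had groups apart and higher.

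**Figure D1:**
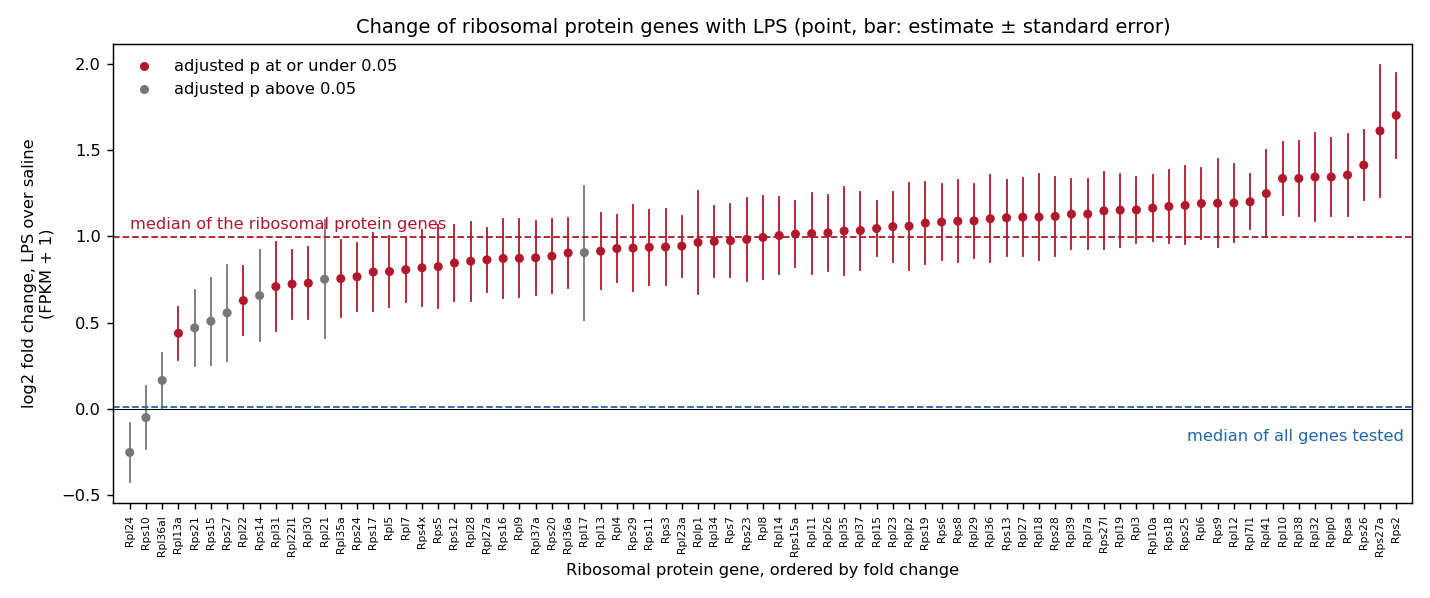
Log2 fold change of FPKM + 1 in LPS (n = 6) over saline (n = 4) for 79 of the 81 tested ribosomal protein genes, ordered by size, as estimate ± standard error from limma. Red points passed an adjusted p of 0.05, dashed lines mark the medians of all tested members (0.99) and of all genes tested (0.01), and all but Rpl24 and Rps10 lie above 0 (Rpl3l, over the filter only through LPS, and 1 further gene are not drawn).

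The largest rises were spread over both subunits. Rps2, a small subunit protein at the entry of the mRNA channel, measured 242, 157, 171 and 152 FPKM in the 4 saline libraries and from 382 to 784 FPKM with a median of 652 in LPS. Its log2 fold change was 1.70 ± 0.25 (standard error, adjusted p = 0.000221, limma), and the groups did not overlap. Rps27a, which encodes ubiquitin fused to a small subunit protein, measured 68.0, 66.1, 41.2 and 40.2 FPKM in saline and from 71.0 to 341 FPKM with a median of 157 in LPS. It changed by 1.61 ± 0.38 (adjusted p = 0.00465, limma), with a wide spread among the LPS libraries and the lowest of them just above the saline group. Rps26, which lines the exit of the mRNA channel, stood at 136, 98.9, 106 and 96.5 FPKM in saline and at 215 to 398 FPKM with a median of 310 in LPS. The log2 fold change of Rps26 was 1.41 ± 0.20 (adjusted p = 0.000209, limma), and here too the groups were apart. Rpsa, a small subunit protein also known as the laminin receptor, had 159, 110, 112 and 108 FPKM in saline and 207 to 470 FPKM with a median of 333 in LPS, a change of 1.36 ± 0.24 (adjusted p = 0.000711, limma).

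On the large subunit, apart from the low paralog Rpl3l, the leading genes had log2 fold changes from 1.25 to 1.34. Rplp0 measured 430, 303, 296 and 296 FPKM in saline and from 597 to 1109.7 FPKM with a median of 904 in LPS, with a log2 fold change of 1.34 ± 0.23 (adjusted p = 0.000602, limma). Rpl10, which joins the large subunit late and lies near its catalytic centre, measured 231, 157, 157 and 156 FPKM in saline and from 310 to 591 FPKM with a median of 469 in LPS, a change of 1.34 ± 0.21 (adjusted p = 0.000383, limma). Both genes were apart between the groups, and saline 1 was the highest saline library for each. Rpl32, Rpl38 and Rpl41, the last of which encodes the smallest ribosomal protein, rose by 1.34 ± 0.26, 1.34 ± 0.22 and 1.25 ± 0.25 on the log2 scale. Their adjusted p-values were 0.00131, 0.000508 and 0.00179 (limma), and the groups did not overlap for any of the 3.

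The genes of the stalk dimers passed the test with groups that overlapped. Rplp1 measured 1173, 719, 794 and 736 FPKM in saline and from 1108 to 2694 FPKM with a median of 1707 in LPS, and Rplp2 measured 155, 92.4, 92.3 and 93.4 FPKM in saline and from 152 to 363 FPKM with a median of 228 in LPS. Saline 1 overlapped the LPS group for both genes. The log2 fold change was 0.97 ± 0.30 for Rplp1 (adjusted p = 0.0181, limma) and 1.06 ± 0.25 for Rplp2 (adjusted p = 0.00466, limma). The call of Rplp1 was lost under 5 of 23 alternatives, namely with no filter, without saline 2, without saline 4 and with either fit that holds the replicate block, with adjusted p-values up to 0.124 (limma) and values above 0 throughout. The difference between the stalk proteins and Rplp0 was not tested. Of the other most abundant members, Rpl36 rose by 1.10 ± 0.25 and Rpl8 by 0.99 ± 0.24 (adjusted p = 0.00378 and 0.00539, limma).

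The groups overlapped for the 10 tested members that did not pass, which include Rps15, Rps27, Rpl21, Rps10, Rpl24 and Rpl36al. Rps15, a small subunit protein, had the second highest saline level of all members. It measured 729, 493, 607 and 510 FPKM in saline and 617 to 1339 FPKM with a median of 814 in LPS. Its log2 fold change was 0.51 ± 0.25 (adjusted p = 0.108, limma). Rps27 measured 234, 143, 129 and 117 FPKM in saline and 148 to 369 FPKM with a median of 236 in LPS, a change of 0.56 ± 0.28 (adjusted p = 0.111, limma). For Rps15 4 and for Rps27 3 of the 6 LPS libraries lay above all saline libraries, and saline 1 lay inside the LPS range of both. Of the 4 genes with shared exons, Rpl24 (log2 fold change -0.25 ± 0.17, adjusted p = 0.229, limma) and Rps10 (-0.05 ± 0.18, adjusted p = 0.832) had values below 0, on 25 to 38 and 60 to 170 reads in the saline libraries. Rpl36al had 0.17 ± 0.16 (adjusted p = 0.392, limma), and Rpl13a, a protein also known for silencing inflammatory mRNAs in interferon-treated myeloid cells, had 0.44 ± 0.15 (adjusted p = 0.0324, limma). The call of Rpl13a was lost under 13 of 23 alternatives, among them scaling on total reads, the removal of a length trend and leaving out any 1 of saline 2, saline 3, LPS 1, LPS 2 or LPS 5, with adjusted p-values up to 0.282 and log2 values from 0.21 to 1.03.

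Paralogs were compared with their parent genes. Rpl3l, a form of Rpl3 known from skeletal muscle and heart, had 0.322, 0.138, 0 and 0.0928 FPKM in saline, which is 0 to 7 reads per library, and 1.41 to 4.35 FPKM with a median of 2.94 in LPS, which is 44 to 116 reads. Because Rpl3l entered the comparison only through its LPS level, these values are a description and no test is given. Rpl3 itself rose by 1.15 ± 0.19 (adjusted p = 0.000538, limma) from 99.7 to 131 FPKM in saline, and in LPS the paralog averaged 2.91 FPKM where the parent measured 167 to 327 FPKM. Rps27l, a target of p53, rose by 1.15 ± 0.22 (adjusted p = 0.00146, limma), where the parent Rps27 did not pass. Rpl7l1, named for its likeness to Rpl7, stood at 10.5, 14.8, 16.1 and 14.2 FPKM in saline and at 25.2 to 39.7 FPKM with a median of 34.5 in LPS. It rose by 1.20 ± 0.16 (adjusted p = 0.000129, limma) and, with Rps10, was 1 of the 2 members for which saline 1 was the lowest saline library. Rpl22l1 and Rpl22 rose by 0.72 ± 0.20 and 0.63 ± 0.20 (adjusted p = 0.0104 and 0.0206, limma), Rpl7 by 0.81 ± 0.19 (0.00438), Rpl36a by 0.90 ± 0.21 (0.00357) and Rpl39 by 1.13 ± 0.20 (0.000864). Rpl22 lost its call under 5 of 23 alternatives (quantile normalization, without saline 2, without saline 4 and both fits with the replicate block, adjusted p up to 0.396, limma), and Rpl22l1 under 1, the block with the length trend removed (0.0562). No paralog was tested against its parent for a difference in response, and the tables hold 388 ribosomal protein pseudogenes, with which members can share reads.

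The members moved together from library to library. Reads on the 83 genes made up 2.37%, 1.92%, 1.86% and 1.87% of all reads on genes in the 4 saline libraries, and from 2.71% to 4.87% (median 3.65%) in LPS. The mean share was 2.01 ± 0.247% (SD, n = 4) in saline and 3.61 ± 0.788% (SD, n = 6) in LPS, a difference of 1.603 percentage points with no overlap of the groups. Saline 1 was the highest saline library for 77 of 81 members, where it was highest for 40.9% of all genes tested, and LPS 2 was the highest LPS library for 78, against 28% of all genes. LPS 6 was the lowest LPS library for 49 members and LPS 3 for 30. The SD between libraries had a median over the members of 0.289 in saline and 0.381 in LPS on the log2 scale, close to the 0.269 and 0.376 of the 1087 genes that averaged 50 FPKM or more. Without saline 1 the members' median log2 fold change was 1.14 and 76 were called, and without LPS 2 it was 0.88 and 69 were called.

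**Figure D2:**
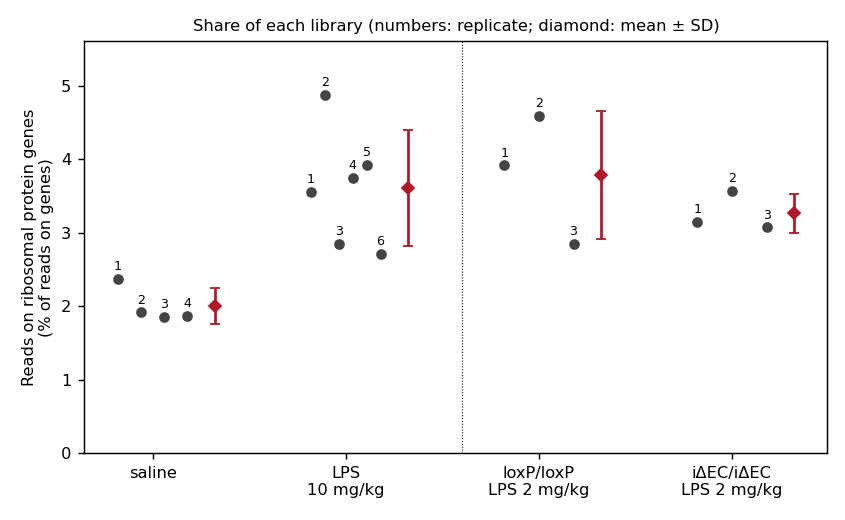
Reads on the 83 ribosomal protein genes as a percentage of all reads on genes, 1 point per library with its replicate number, and mean ± SD as a diamond. The saline libraries lie at 1.86% to 2.37% and the LPS libraries at 2.71% to 4.87%, while the iΔEC/iΔEC libraries (3.07% to 3.57%) lie within the range of the loxP/loxP libraries (2.85% to 4.58%).

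**Figure D3:**
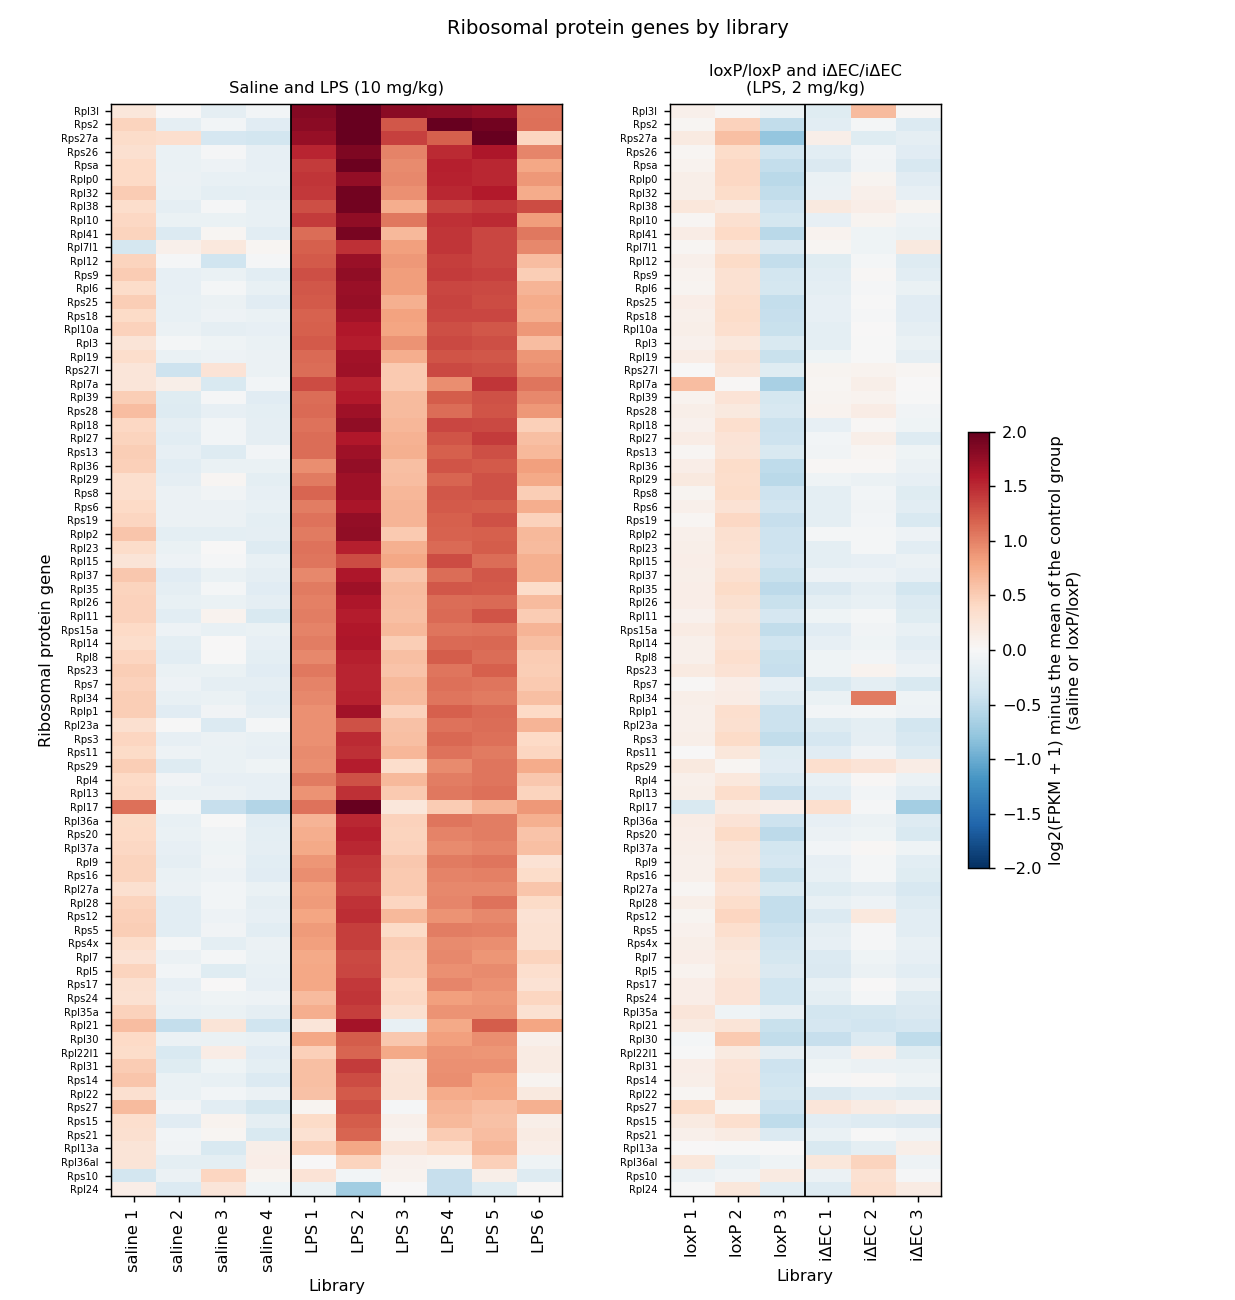
Log2(FPKM + 1) of 80 of the 81 tested ribosomal protein genes in each library minus the mean of the control group (saline on the left, loxP/loxP on the right), on a colour scale from -2 to 2 with genes in the order of their change with LPS. Whole columns shift together, with saline 1 and LPS 2 the highest of their groups for 77 and 78 of 81 members and loxP 3 the lowest of its group for 78.

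Markers of other cells differed between the groups and among the libraries, and no single order of the libraries held for all lists. All 6 leukocyte markers, 6 of 8 neutrophil markers and 7 of 8 macrophage and monocyte markers rose with LPS, with medians of 2.92, 2.49 and 3.99 on the log2 scale, and 5 of 10 endothelial markers fell, with a median of -0.58. The neutrophil marker Elane, a granule protease made by neutrophil precursors, fell by 1.20 on the log2 scale (adjusted p = 0.0196, limma), a call lost under 2 of 22 alternatives. The summed FPKM of the leukocyte list was 196, 150, 76.3 and 132 in saline and 614 to 1482 in LPS, with Coro1a, an actin regulator of leukocytes, the most abundant. The neutrophil list summed to 1370 FPKM in saline 1, to 70.5 to 304 FPKM in the other saline libraries and to 1283 to 6618 FPKM in LPS, with S100a9 the most abundant in every library. Saline 1 was thus the highest saline library and LPS 2 the highest LPS library for the neutrophil list as for the members, and LPS 6 was the lowest LPS library for it. The macrophage and monocyte list summed to 71.9 to 139 FPKM in saline and 669 to 1489 FPKM in LPS, led by Chil3. For this sum saline 3 and LPS 1 were the highest of their groups, and for the leukocyte list saline 1 and LPS 1 were. By mean log2(FPKM + 1), saline 1 was the highest saline library for the macrophage and monocyte list (2.69, against 2.60 in saline 3). The epithelial list summed to 2845, 1322, 2102 and 1068 FPKM in saline and to 263 to 941 FPKM in LPS, so that its highest libraries, saline 1 and LPS 2, were those of the members, while it was lower in LPS. By summed FPKM the endothelial (5696 and 3661 FPKM), mural and erythroid lists were also highest in saline 1 and LPS 2. The mean log2(FPKM + 1) was instead highest in saline 3 and LPS 6 for the endothelial list, and in saline 1 and LPS 6 for the mural list. Of the other lists, 2 of 5 tested lymphocyte and 4 of 6 fibroblast markers fell and 3 of 4 erythroid markers rose, and the 2 of 9 epithelial and 1 of 7 mural markers that fell are no larger a share than the 23.7% of all genes. Both lymphocyte calls (Cd79a and Ms4a1) were lost without saline 1, saline 2, saline 4 or LPS 5 and with the replicate block. The fibroblast calls of Col1a1 and Col3a1 were lost without saline 2 and with the block. All 4 fibroblast calls were lost when libraries were scaled on the endothelial list, where the median of all genes tested was 0.53. The erythroid marker Hba-a2 lost its call under 3 of 22 alternatives. Of the endothelial calls, that of Esam was lost under 7 of 23 alternatives, among them without saline 1, saline 3 or LPS 5. Cdh5 and Tie1 each lost the call under 1 of 23, and Kdr and Tek under 0. No gene of the leukocyte list was at 0 in any library, and 1 neutrophil marker in saline 4 and 1 macrophage marker in saline 1 were. In bulk samples a change in the cells present and a change in the RNA per cell cannot be told apart, and the part of these cells in the members' rise was not tested.

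Other gene groups of the same machinery give the members' rise its setting. These lists, and those of the next paragraph, were chosen with earlier results of these data known. Fau and Rps3a1, small subunit genes that the naming rule leaves out, rose as well, by 1.02 ± 0.28 and 0.90 ± 0.24 on the log2 scale (adjusted p = 0.00892 and 0.00824, limma). Both lost the call with either fit that holds the replicate block (adjusted p up to 0.0592 and 0.0566, limma). Of 19 translation factors and other genes with TOP mRNAs, 18 rose, with a median of 0.82, led by Rack1, a scaffold on the small subunit (1.14), Eef1g of the elongation factor complex (1.14) and the nucleolar chaperone Npm1 (1.13). Of 41 tested ribosome biogenesis genes, 34 rose and 0 fell, with a median of 0.71, among them Nhp2, a core protein of box H/ACA particles (1.82), the rRNA methyltransferase Fbl (1.47) and the assembly factor Mrto4 (1.40). Among the regulators of ribosome synthesis 6 of 17 rose (35.3%) and 3 fell (17.6%), with a median of 0.21, shares near the 29.5% and 23.7% of all genes. Of the genes called in this list, Myc, a transcription factor that drives ribosome production, rose from 2.43 ± 1.01 to 11.7 ± 2.37 FPKM (SD, log2 fold change 1.91), Eif4ebp1, an inhibitor of cap-dependent translation, by 1.62 and the cap-binding protein Eif4e by 0.85. Tsc2, which restrains mTOR, fell by 0.86 on the log2 scale, and its partner Tsc1 and Eif4ebp2 had -0.40 and -0.48 (adjusted p = 0.0377 and 0.00865, limma). None of these 3 was called when libraries were scaled on the endothelial list, where Tsc2 had -0.23, Tsc1 0.13 and Eif4ebp2 0.19. On that scale the median of all genes tested was 0.53. Tsc2 lost its call under this 1 of 23 alternatives. Tsc1 lost its call under 12 of 22 alternatives in all, among them leaving out any 1 of saline 2, 3 or 4 and LPS 2, 4 or 5, and Eif4ebp2 lost it under 3 of 23, also with both fits that hold the replicate block. The list of ribosome quality control and hibernation was likewise near the background, with a median of 0.02. Of its 10 genes 4 rose, among them Serbp1 (0.74), Ccdc124 (0.70) and the recycling factor Abce1 (0.57), and 2 fell, the rescue factor Pelo by 0.56 and Habp4 by 0.43. With the replicate block 2 were called higher and 0 lower, and on the endothelial scale Pelo had 0.02 and Habp4 0.14, not called. Ccdc124 lost its call under 8 of 23 alternatives, without saline 2 or saline 4 among them (adjusted p up to 0.177, limma).

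The rise was not limited to the cytosolic ribosome. Of 76 tested mitochondrial ribosomal proteins 55 rose and 0 fell, where 29.5% of all genes rose, with a median of 0.66. Of 73 subunits of oxidative phosphorylation 58 rose and 1 fell, with a median of 0.82, and of 38 proteasome subunits 34 rose and 0 fell, with a median of 1.08. Under quantile normalization 41 mitochondrial ribosomal proteins, 38 subunits of oxidative phosphorylation and 32 proteasome subunits were called higher, with medians of 0.41, 0.33 and 0.68. The proteasome's median exceeded that of the ribosomal proteins, and these lists were not tested against each other. Among the 95 tested ribosomal protein pseudogenes, 51 rose and 3 fell, with a median of 0.66. Reads on pseudogenes made up 0.0779 ± 0.00635% of reads in saline and 0.141 ± 0.0280% in LPS (SD).

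The members' change with LPS varied little with gene length, and the change of other genes varied with level. In 6 classes of table length from under 500 to over 4000 bases, the members' median log2 fold change lay between 0.94 and 1.05, while that of the other genes ran from -0.15 below 500 bases through 0.29 between 1000 and 1500 bases to -0.11 over 4000 bases. Across the 81 members, which share their libraries, the correlation of the change with log2 table length had a Pearson's r of 0.05 and a Spearman's rho of 0.03. The median of other genes was -0.17 below 5 FPKM, 0.11 between 5 and 20 FPKM, 0.40 between 20 and 50 FPKM, 0.59 between 50 and 100 FPKM and 0.83 between 100 and 200 FPKM, and it was lower again, at 0.66, over 200 FPKM. The members had 0.059 below 5 FPKM (4 genes), 0.58 between 5 and 20 FPKM (2 genes), 1.01 between 20 and 50 FPKM (3 genes) and then 0.90, 1.04 and 1.00. The class below 5 FPKM holds Rpl36al (0.17), Rps10 (-0.05), Rpl24 (-0.25) and Rpl3l, which passed the filter only through LPS. Without Rpl3l the middle value of this class is the -0.05 of Rps10. From 20 FPKM up the members' median varied little. Across the 81 members the correlation of the change with log2 mean FPKM had a Pearson's r of 0.43 and a Spearman's rho of 0.22. The 81 include Rpl3l and, at low levels, the 4 genes with shared exons, so these coefficients are a description only. Within the quartiles of the members in both level and length there were 107 other genes, with a median of 0.74 and 60.8% called higher, against a median of 1.03 for the 24 members there. When a smooth trend over length was removed from each library, the members' median was 0.79 and 69 were called higher.

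**Figure D4:**
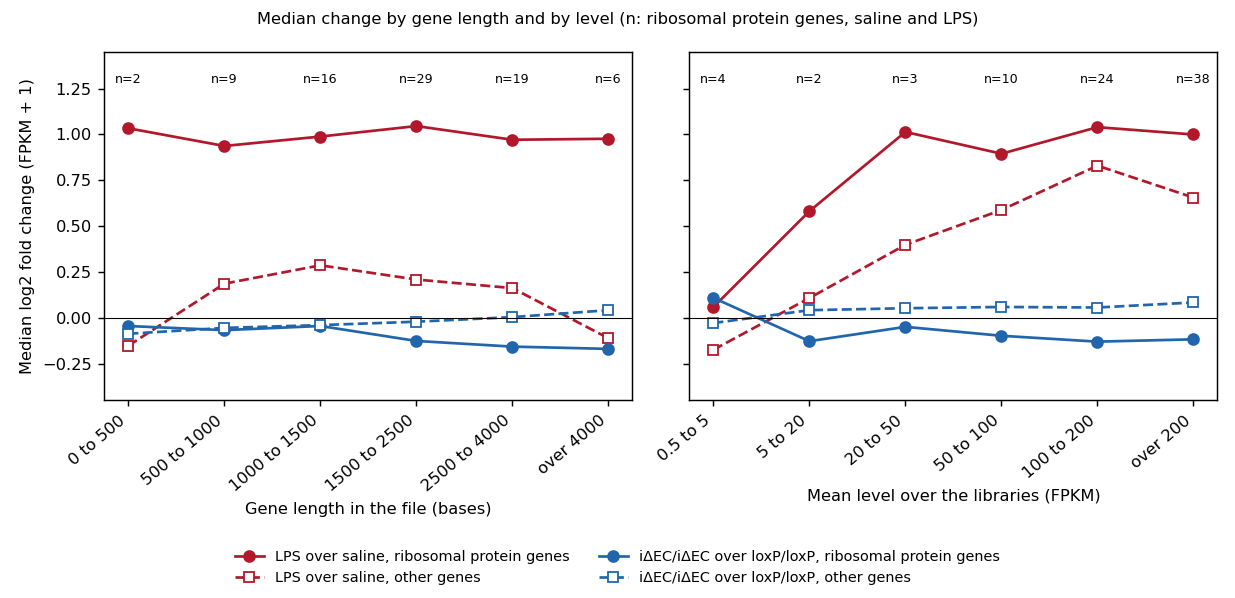
Median log2 fold change of ribosomal protein genes (filled circles) and of all other genes tested (open squares) by class of gene length and of mean FPKM, for LPS over saline (red) and iΔEC/iΔEC over loxP/loxP (blue). With LPS the members stay near 1 in every length class (0.94 to 1.05), and other genes climb with level from -0.17 below 5 FPKM to 0.83 between 100 and 200 FPKM before a lower value of 0.66 over 200 FPKM. The members' class below 5 FPKM includes Rpl3l, which passed the filter only through LPS.

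The scale on which libraries are made comparable set the size of the rise. The deposited scaling matches median-of-ratios factors and leaves the median of all genes near 0. Scaling on total reads moved the median of all genes to -0.14 and that of the members to 0.79, with 69 called higher, and the split of calls over all genes turned from 4399 higher and 3529 lower to 3473 higher and 4622 lower. Under quantile normalization, which gives each library the same distribution of values, the members' median was 0.40, or 0.47 above that of all genes, and 55 were called higher. Scaling on the endothelial markers placed the median of all genes at 0.53 and that of the members at 1.68, with 78 called higher. The median of the members lay above that of all genes in each of these scalings, and 0 members were called lower.

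The second comparison asks what endothelial loss of Fgfr1 changes under LPS. Fgfr1 itself was read first, as a check of the labels, and measured 2.90, 2.91 and 2.60 FPKM in loxP/loxP ECs and 0.682, 1.41 and 1.15 FPKM in iΔEC/iΔEC ECs. The groups did not overlap, and the log2 fold change of FPKM + 1 was -0.88 ± 0.16 (unadjusted p = 0.00103, adjusted p = 0.962, limma). Whether the remaining Fgfr1 reads came from ECs or from other cells of the fraction cannot be told apart.

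No ribosomal protein gene was called in iΔEC/iΔEC over loxP/loxP ECs. Of 14945 genes tested, 0% were called in either direction by limma at an adjusted p of 0.05, and 661 had an unadjusted p under 0.05, 2.07% of genes higher and 2.36% lower. Among the 81 tested members 1 had an unadjusted p under 0.05, and the limma-voom test on reads gave the same counts of 0 and 1. The members' median log2 fold change was -0.12, with quartiles of -0.17 and -0.06, against 0.01 over all genes, and 68 of the 81 values were below 0, where 46.9% of all genes were. This tilt rested on the loxP/loxP libraries. Reads on the members made up 3.91%, 4.58% and 2.85% of reads in loxP/loxP and 3.15%, 3.57% and 3.07% in iΔEC/iΔEC, so the knockout libraries lay inside the range of the controls. Without loxP 2 the members' median was 0.02 with 55 of 81 above 0, and without loxP 3 it was -0.32 with 34 members at an unadjusted p under 0.05.

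The loxP/loxP libraries differed more from each other in these genes than the iΔEC/iΔEC libraries did. The SD between libraries had a median over the members of 0.371 on the log2 scale in loxP/loxP and of 0.0937 in iΔEC/iΔEC, against 0.256 and 0.173 over the 1077 genes that averaged 50 FPKM or more and 0.184 and 0.161 over all genes tested. LoxP 3 was the lowest of its group for 78 of 81 members, where it was lowest for 39.6% of all genes, and loxP 2 was the highest for 72. The neutrophil list summed to 1171, 2549 and 2599 FPKM in loxP/loxP and to 751, 2435 and 1537 FPKM in iΔEC/iΔEC, so loxP 3, low in ribosomal proteins, was the highest there. The epithelial list summed to 920, 1664 and 2910 FPKM in loxP/loxP and to 427, 1099 and 845 FPKM in iΔEC/iΔEC. The mural list summed to 70.1, 93.4 and 132 FPKM and to 47.9, 83.5 and 74.0 FPKM, and the endothelial list to 3149, 2510 and 2639 FPKM and to 3987, 2805 and 3647 FPKM. Between same-numbered libraries, the neutrophil, epithelial and mural sums were thus lower and the endothelial sum higher in iΔEC/iΔEC in 3 of 3 pairs, where the members' share of reads was lower in pairs 1 and 2 and higher in pair 3. The leukocyte, macrophage and monocyte, lymphocyte, fibroblast and erythroid sums had no single direction over the pairs. The leukocyte sum, for example, was higher in iΔEC/iΔEC in pair 2 (602 and 673 FPKM) and lower in pairs 1 and 3. With 3 pairs an exact test cannot pass 0.05, and none was made. The part of these cells in the members' values was not tested.

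In this comparison the members' difference varied with gene length. Their median was -0.04 below 500 bases (2 genes), -0.07 between 500 and 1000 bases, -0.04 between 1000 and 1500 bases, -0.13 between 1500 and 2500 bases, -0.16 between 2500 and 4000 bases and -0.17 over 4000 bases (6 genes), so it was lower in the longer classes without a steady run, while that of the other genes went from -0.09 in the shortest class to 0.04 in the longest. Across the 81 members the correlation with log2 table length had a Pearson's r of -0.36 and a Spearman's rho of -0.40, against 0.18 for both over all genes tested. With a smooth trend over length removed from each library, the members' median was -0.11 and 0 were called.

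The members with the smallest unadjusted p in this comparison are given as values. Rpl35a, a large subunit protein mutated in some cases of Diamond-Blackfan anemia, measured 12.3, 9.54 and 8.96 FPKM in loxP/loxP and 7.63, 7.74 and 8.11 FPKM in iΔEC/iΔEC, a log2 difference of -0.34 ± 0.13 (unadjusted p = 0.0355, adjusted p = 0.962, limma). Rps7, another gene of that disease, measured 147, 158 and 128 FPKM in loxP/loxP and 117, 126 and 117 FPKM in iΔEC/iΔEC, a difference of -0.26 ± 0.13 (unadjusted p = 0.0894, limma). These 2 were the only members whose groups did not overlap, both lower, where 4.09% of all genes tested were, and 0 members were apart and higher, where 6.02% were. Rpl21, Rpl30 and Rpl22 differed by -0.35 ± 0.19, -0.42 ± 0.25 and -0.25 ± 0.18, with unadjusted p-values of 0.116, 0.146 and 0.199 (limma). Of the genes that led the rise with LPS, Rps2 measured 522, 705 and 360 FPKM in loxP/loxP and 439, 494 and 422 FPKM in iΔEC/iΔEC, with loxP 2 the highest and loxP 3 the lowest of all 6 libraries. The paralog Rpl3l measured 0.609, 0.518 and 0.369 FPKM in loxP/loxP and 0.259, 1.33 and 0.523 FPKM in iΔEC/iΔEC, with no order between the groups.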

How the data were processed

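Bulk RNA-seq of 16 libraries was analysed from the FPKM that the authors deposited in 2 tables, 1 for each experiment and normalized separately. Libraries were sequenced on an Illumina NovaSeq. Per the submitters' processing notes and the study's methods, reads were aligned to mm10 (GRCm38) with HISAT2 2.0.5 and counted on genes with featureCounts 1.5.0-p3, and the authors tested counts with DESeq2. Strandedness, the handling of reads with several alignments or on several genes and the annotation release are not given in the sources used here. FPKM times length gave whole read numbers for 100.0% (first table) and 99.98% (second) of values above 0, within 0.02 of a read, so depth is known, and all 27 pairs of replicates differed beyond counting noise (mean chi-square per gene of 7.28 or more). The deposited FPKM were rescaled by median-of-ratios factors, which changed them by at most 0.182%. Genes that averaged 0.5 FPKM or more were compared as log2(FPKM + 1) with limma 3.58.1 (lmFit, eBayes with trend) in R 4.3.3, within each table, with Benjamini-Hochberg adjustment. A fold change on this scale understates the change of low genes. Reads are not independent molecules.

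The members and lists were chosen with earlier results of these data known. Named members are the 10 largest rises, the 5 highest and 5 lowest saline levels, paralogs with their parents, the stalk and Rpsa, the 5 smallest p-values in the second comparison and, of each other list, up to 3 genes called in each direction. Members named outside this rule (those that were not called, the printed starts and those compared by rank, exon overlap or level) were chosen after their values were seen. Starts come from the RefSeq promoters of GRCm38.p6. GENCODE M21 held 54409 of the 54532 identifiers, with the same start and end for 81 of the 83 members. In 11 rows the symbols differed between the tables, and those of the first were used.

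Same-numbered libraries of the second experiment deviated together (correlations of deviations from the group means of 0.25, 0.18 and 0.19). Their values were therefore also described by pair, and the numbers served as a block in alternative fits. The main fit and its p-values hold no block. This pairing rests on the data and not on the labels. Alternatives covered the pseudocount, the filter, 5 other scalings, removal of a length trend, limma-voom on reads, the replicate block and leaving out libraries. The fit was checked on simulated data. Some items are not reported here. Python 3.11.15, pandas 2.3.3, numpy 2.4.6, scipy 1.17.1 and matplotlib 3.10.9 were used.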

Additional observations from a re-analysis of the deposited data

Results flagged for a closer look

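A sample far from the others of its group was looked for in 88 groups of 4 or 6 libraries with Dixon's test at its 95% limit, and 14 were found, where chance gives about 1 in 20 groups (4.4). Of these, 12 were saline 1 standing above the other 3 saline libraries. The FPKM in saline 1 was 1170 for Rplp1 (719 to 794 in the others), 515 for Rpl36 (318 to 336), 430 for Rplp0 (296 to 303), 304 for Rpl32 (188 to 195) and 231 for Rpl10 (156 to 157). It was also 159 for Rpsa (108 to 112), 155 for Rplp2 (92.3 to 93.4), 124 for Rps7 (78.9 to 83.7), 71.0 for Rpl30 (48.1 to 49.4), 67.5 for Rpl35a (42.6 to 44.2) and 65.9 for Rpl22 (47.8 to 50.7). The share of reads on the members in saline 1 was 2.37%, against 1.86% to 1.92%. The lymphocyte list was low in saline 3, where its genes averaged 1.85 as log2(FPKM + 1), and the other saline libraries had 3.18 to 3.40. Rpl39l reached 0.402 FPKM in LPS 5 against at most 0.132 FPKM in the other LPS libraries.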

How the results depend on the processing

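For LPS over saline the count of members called higher (71) stayed within 1.5 times under all alternatives, from 55 to 78, and the members' median (0.99) stayed above 0. Leaving out each library gave 67 to 76 called members, 0 called lower, a median of 0.88 to 1.14 and a difference in the share of reads of 1.35 to 1.78 percentage points (1.603 with all). The median moved to 0.40 under quantile normalization and to 1.68 when scaled on the endothelial list, and the share difference to 2.44 percentage points of summed FPKM. The saline and LPS numbers share only a number (correlations 0.10, -0.16, -0.21 and -0.12). With the replicate block 66 members were called and the median was 1.07, and with the length trend removed as well 62 were higher and 1 lower (Rpl24). Over genes at 0.5 FPKM or more in both groups, an alternative also chosen after seeing the data, 70 of 80 were called. Without saline 1 and saline 3, chosen after seeing the data for their reads on Gm23935, 73 were called and the median was 1.17.

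Over the named members, 690 values kept their call and direction, 27 lost the call (13 of them Rpl13a, 5 each Rpl22 and Rplp1, and 1 each Rpl22l1, Rpl7, Rpl30 and Rpl35a, the last 3 under quantile normalization), 8 gained it, and 7 reversed, none of them called. These were Rpl36al with the length trend removed (-0.10; -0.14 with the block), Rpl24 (0.17) and Rps10 (0.47) on the endothelial scale, Rps10 without saline 3 (0.093) or LPS 4 (0.03; its range over single libraries left out is -0.17 to 0.093) and Rps27 under quantile normalization (-0.094). The causes were not tested.

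For iΔEC/iΔEC over loxP/loxP 0 members were called under all alternatives, and leaving out each library gave medians of -0.32 to 0.02 and a share difference of -0.986 to -0.12 percentage points. With the replicate block 0 genes were called and 1154 had an unadjusted p under 0.05, so the block changed no call. Members under about 3 FPKM rest on few reads and can show only large changes.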

Other observations

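Some levels differed between the 2 tables, which were normalized separately and hold different mice and doses, so that only values are given. Over the members the log2 ratio of the loxP/loxP mean to the LPS mean of the first table, each as FPKM + 1, had a median of -0.03 and an SD of 0.42. Rpl35a was farthest, at 49.5 and 85.7 FPKM in saline and LPS but 10.3 FPKM in loxP/loxP, a log2 ratio of -2.94, and Rpl3l followed with 2.91 and 0.499 FPKM in LPS and loxP/loxP (-1.38). Rpl34 averaged 134 FPKM in LPS and 64.9 FPKM in loxP/loxP (-1.03), and within the second table it stood at 133 FPKM in iΔEC/iΔEC 2, against 53.4 to 71.1 FPKM in the other 5 libraries. Rpl21 lay at the other end, with 38.9 and 62.9 FPKM (0.68).

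The small gene Gm23935, annotated as a miRNA gene, had 40990 and 54700.0 FPKM in saline 1 and saline 3, or 0.229% and 0.344% of reads, against 2913 to 7087 FPKM in the other 8 libraries of the first table.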
